A study of Bombyx mori with 64 samples.

Results

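The body wall of the silkworm larva was compared with the other tissues of the same stage for its miRNA signals. Its members are the 4 arrays labelled body wall among the fifth-instar day 3 arrays, which are 1 female and 1 male RNA specimen, each hybridized to slides a and b. They were set against the 32 other arrays of that stage, out of 64 arrays in the whole series. Both sexes were sampled for hemocyte, fat body, midgut, head, malpighian tubule, anterior silk gland and posterior silk gland, and the gonads added 1 ovary and 1 testis specimen. All animals were of DaZao, a bivoltine strain, reared on mulberry leaves and given no other treatment by the labels. How many larvae were dissected for a specimen was not given in the sources used here. Slides a and b of a specimen held the same RNA and were averaged, so that the body wall has n = 2 (1 female, 1 male), as have the other tissues except the ovary and the testis with 1 specimen each.

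The body wall of a caterpillar is a sheet of epidermis that secretes the cuticle, with the segmental muscles, tracheae and peripheral nerves attached to it. miRNAs are short RNAs that guide Argonaute proteins to messenger RNAs and repress them, and in insects they take part in muscle maintenance, molting and the change from larva to pupa. The array carried 106 antisense probes named SW-1 to SW-106, and the files and reference tables used here do not pair these names with miRNAs or sequences. By the methods of the study, some probes repeat a miRNA, and others are for antisense strands or for miRNAs of other organisms. Counts of probes are therefore not counts of miRNAs, and probes that run together may share a target. SW-7 can be tied to a name through the legend of the study, which gives miR-1 for the highest larval signal, since that signal is the one of SW-7 in the female head. miR-1 is a conserved miRNA of muscle, known above all from Drosophila and vertebrates. Lists of muscle, nerve or epidermis miRNAs could therefore not be checked against the label of the tissue.

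The signals of the body wall were high across the whole array, also in a control. The control named blank in the files, whose content they do not state, gave signals of 2591 and 1889 on the female slides and of 2712 and 2043 on the male slides, compared with 4.67 to 254 on the 28 day 3 arrays of 7 other prefix groups. A prefix group is the arrays whose file names share a prefix, and what the prefix stands for is not given in the sources used here. Apart from the ovary and testis, which shared one, no prefix group held more than 1 day 3 tissue, so prefix group and tissue cannot be told apart in the larval comparison. The prefix group of the body wall also held 10 arrays of later stages, with blank signals of 2307 to 4123, and the malpighian tubule arrays of another prefix group gave 173 to 2160. Only 16 of 106 probes were brighter than the blank on all 4 body wall arrays, and 76 were on none. Subtraction of the blank was one of the alternatives tried below. A second control, also called blank, stayed at 5.83 to 27.8 on the body wall arrays.

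At the threshold of 1000 used by the study for expression, 34 probes were positive in the female body wall and 65 in the male, and all 34 female ones were among the male ones. The 10 brightest probes of the female specimen held 40.3% of its summed signal and those of the male 51.4%. By the mean log2 signal of both sexes the 10 brightest were SW-68, SW-7, SW-58, SW-25, SW-45, SW-74, SW-9, SW-46, SW-38 and SW-55, and all 10 were brighter than the blank on all 4 arrays. SW-68 gave 6034 and 4815 on the female slides and 31728 and 29695 on the male slides. SW-7 gave 3856 and 5034 in the female and 23924 and 25357 in the male. Both were thus lower in the female than in the male specimen on either slide. SW-9 was the brightest probe of the female, with 8298 and 6802, and reached 9310 and 9949 in the male. Most of these were also bright elsewhere: SW-9, SW-25, SW-38, SW-45, SW-46 and SW-58 exceeded 1000 in all 16 other specimens.

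The first comparison asked which probes differed between the body wall and the mean of the 9 other tissues. Of the 55 probes that reached 1000 in at least 2 of the 18 specimens, 34 (61.8%) were higher in the body wall and 3 (5.45%) were lower by limma at an adjusted p under 0.05. The median difference over all 55 was 1.13 on the log2 scale, so that the body wall stood above the others as a whole. This split turned with the scaling of the arrays. After division of each array by its median, 3 of 60 tested probes were higher and 39 lower. With the arrays scaled on the 12 probes at 1000 or more in every tissue, 23 of 46 were higher and 7 lower, and after subtraction of the blank 6 of 43 were higher and 21 lower. Of the 34 higher probes, 13 were brighter than the blank on all 4 body wall arrays and 17 on none.

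SW-6, SW-63 and SW-68 were higher in the body wall under the deposited scaling and under all 4 other scalings. SW-54, SW-72 and SW-106 were lower under each of these. They included blank subtraction and a median scaling with the hemocyte arrays left out. Blank subtraction could not test the lower direction for SW-54 and SW-106, whose body wall signals all lay below the blank. For SW-72 the same held in the female, at 820 compared with a blank of 1889 or more. Subtraction left nothing of these signals, so those specimens could not come out higher. SW-6 showed the largest difference. It gave 3480 and 4004 on the female slides and 4020 and 3484 on the male slides, so the sexes were at the same level. In the other 16 specimens it ranged from 10.3 in the female hemocyte to 4228 in the female head, with a median of 167. The body wall exceeded their mean by 3.87 ± 0.24 (SE) on the log2 scale, or 14.6-fold (limma, adjusted p = 2.77e-10). It was higher than in 8 of the 9 tissues. The head was the exception, with 4228 and 4071, and its difference from the body wall of -0.14 (95% interval -0.82 to 0.54) did not pass (adjusted p = 0.69). No other specimen exceeded 747.

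SW-63 followed a similar course. It gave 2937 in the female body wall and 5083 in the male, compared with 5501 and 4556 in the head, 1262 in the ovary and 11.0 to 687 in the other 13 specimens. The difference from the mean of the others was 2.86 ± 0.25 on the log2 scale (limma, adjusted p = 1.47e-08), and again the head was the only tissue not exceeded. SW-68 gave 5425 and 30712 in the body wall, compared with 18688 and 19837 in the head and 8673 and 7699 in the midgut. In the silk glands, gonads and hemocytes it lay between 11.3 and 475. Its difference was 3.77 ± 0.45 (adjusted p = 7.02e-07), and the head and the midgut were not exceeded. The size rests on the male, with 5.02 without the female body wall and 2.51 without the male.

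SW-7, the probe tied to miR-1, was brightest in the head, at 78944 in the female and 73289 in the male. The male body wall came next with 24640, followed by the midgut with 12686 and 9110. The female body wall, with 4445, lay between the malpighian tubules of the female (5080) and the male (2890). The other specimens had 1340 or less. Against the mean of the others the body wall was higher by 3.30 ± 0.45 on the log2 scale (limma, adjusted p = 3.45e-06), with 4.54 without the female and 2.06 without the male specimen. Against the head it was lower by a log2 difference of -2.87 ± 0.60 (adjusted p = 0.00079). Its difference from the midgut and from the malpighian tubule did not pass. With the arrays divided by their medians, the difference from the mean was 1.34 with an adjusted p of 0.107. SW-7 and SW-68 ran together over the 18 specimens (Pearson r of log2 signals 0.98), with SW-68 at 1.22 times SW-7 in the female and 1.25 times in the male body wall. The likeness rests on specimens that also share prefix groups. The study reports alternative array probes for miR-1, but the targets of SW-68 are not given in the files.

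**Figure D1:**
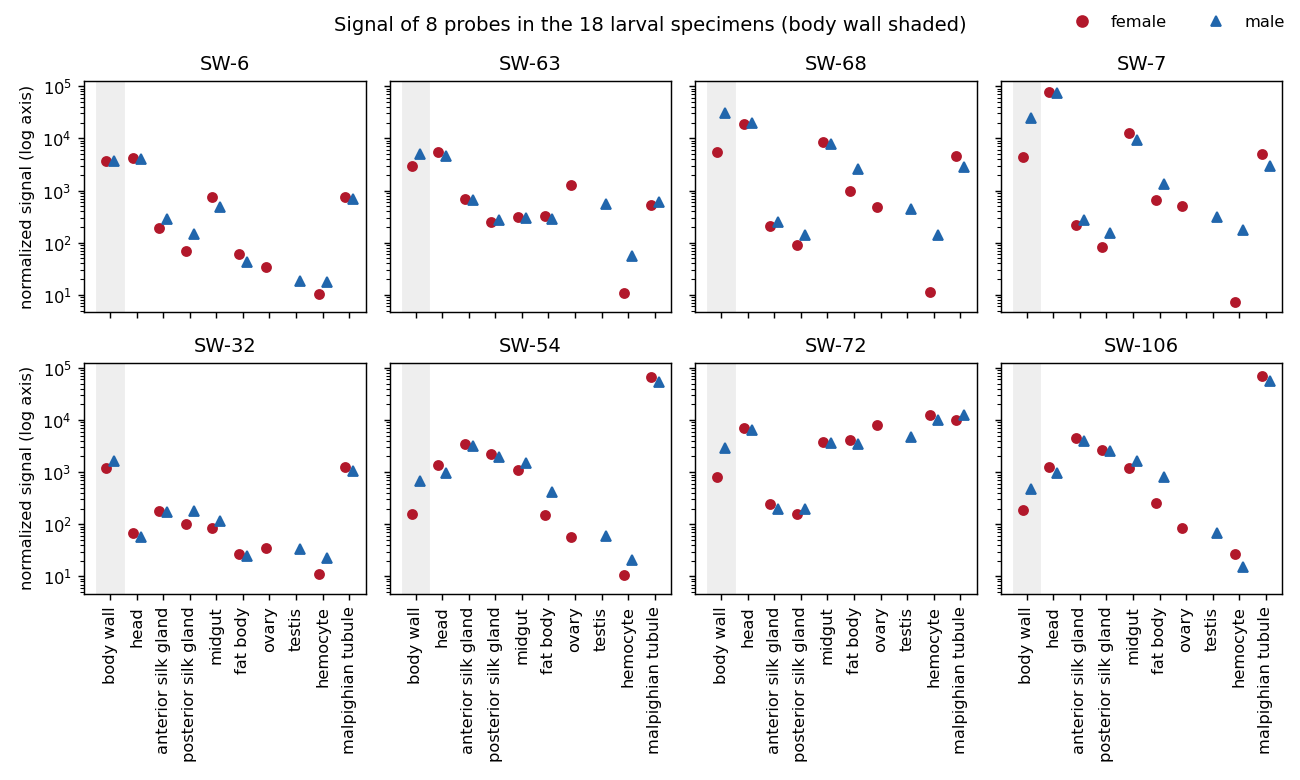
Normalized signal (log axis) of 8 probes in the 18 larval specimens, female as circles and male as triangles, each the mean of slides a and b, with the body wall shaded. SW-6, SW-63, SW-68 and SW-7 share high signals in body wall and head, SW-32 is above 1000 in body wall and malpighian tubule alone, and SW-54 and SW-106 are highest in the malpighian tubule.

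Of the 12 probes with the largest positive difference, 6 did not exceed the head. For SW-6, SW-52 and SW-63 the head was the only such tissue, for SW-68 the midgut was another, for SW-74 the malpighian tubule, and for SW-7 both. SW-74 gave 6491 in the female and 13155 in the male body wall and 23357 and 22678 in the head, and its signals of 9624 and 13851 in the malpighian tubule lay closest to the body wall. Its difference from the mean was 2.75 ± 0.30. SW-52 gave 3302 and 4194, compared with 3492 and 2943 in the head (2.71 ± 0.24). All 6 were brighter than the blank on all 4 body wall arrays. For a further 5 probes, SW-5, SW-32, SW-37, SW-47 and SW-65, the malpighian tubule was the only tissue not exceeded. The signals of SW-32 were 1191 and 1610 for the body wall, 1278 and 1070 for the malpighian tubule and 11.0 to 180.5 elsewhere, with a difference of 3.23 ± 0.23 (adjusted p = 8.98e-10). SW-5 gave 1162 and 1749 in the body wall, compared with 1059 and 1046 in the malpighian tubule, and was the only higher probe for which both body wall specimens lay above all 16 others. SW-56, which exceeded neither the ovary nor the malpighian tubule, was at 1382 and 2070 in the body wall, compared with 2127 in the ovary.

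These 5 and SW-56 lay below the blank on all 4 body wall arrays. Of the other day 3 arrays, 3 of the 4 malpighian tubule arrays were the only ones with a blank above 254. SW-47 and SW-65 passed the filter only because of the body wall, as did 1 further probe, SW-31, and had to be high there. In all 10 probes exceeded 8 of the 9 tissues, of which 6 failed to exceed the malpighian tubule and 4 the head (SW-6, SW-52, SW-63 and SW-92). Over all 34 higher probes, the head was the brightest other tissue for 19 and the malpighian tubule for 11, while hemocyte, ovary, testis and fat body accounted for 1 each. SW-81 was the 1 probe that exceeded both head and malpighian tubule, with 1388 and 2563 in the body wall. It gave 197 and 109 in the head and 939 and 1020 in the malpighian tubule. Against the malpighian tubule it only just passed (limma, adjusted p = 0.04995). Fat body was at 2070 and 1869 for SW-81, so that fat body and body wall overlapped. SW-81 was named after its values were seen.

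**Figure D2:**
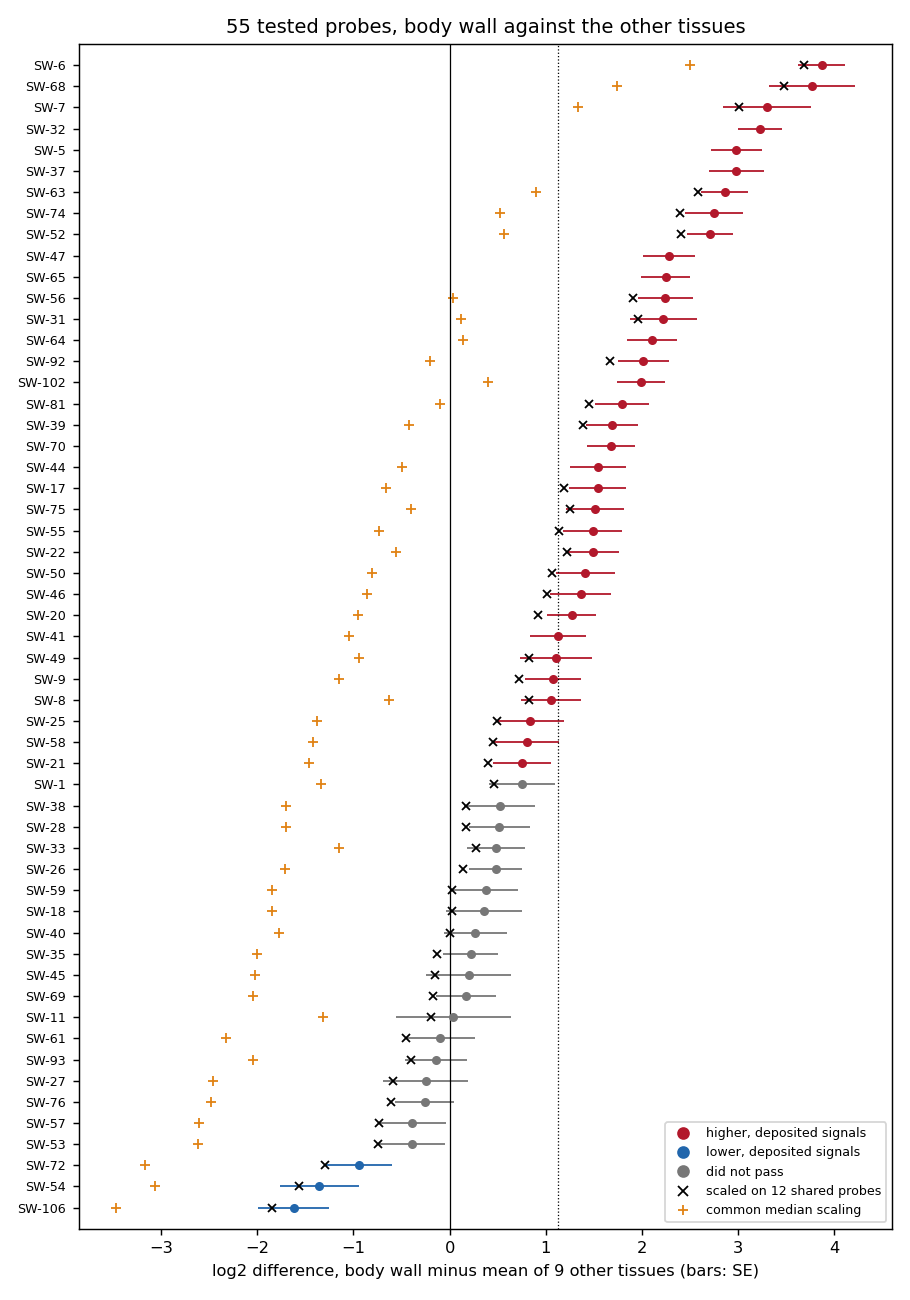
Log2 difference between the body wall and the mean of the 9 other tissues for the 55 tested probes (circles, bars are SE; red higher, blue lower, grey not past an adjusted p of 0.05), with the same differences after scaling on 12 shared probes (crosses) and on a common median (plus signs). The dotted line marks the median of 1.13, and the common median moves SW-6 from 3.87 to 2.50 and most other probes below 0.

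The 3 lower probes were highest in the malpighian tubule or, for SW-72 in the female, the hemocyte. For SW-106 and SW-54 the body wall was lower than 5 tissues but higher than the ovary, testis and hemocyte. Both probes lay below the blank of 1889 to 2712 on the body wall arrays. In the ovary, testis and hemocyte they were under 100 and set to that floor. These higher calls thus compare signals below a raised blank with the floor. SW-106 gave 228 and 152 on the female and 461 and 502 on the male slides, compared with 69961 and 56370 in the malpighian tubule 2526 to 4509 in the silk glands, 85.3 and 69.0 in the ovary and testis, and 26.5 and 15.0 in the hemocytes. Its difference from the mean of the others was -1.62 ± 0.37 on the log2 scale (limma, adjusted p = 0.000667). All 12 spots of SW-106 were saturated on the 4 malpighian tubule arrays (net signals of 64000 or more), so the tubule was at least 209.9-fold brighter than the body wall (adjusted p = 2.75e-10). SW-54 gave 194 and 118 on the female and 780 and 560 on the male slides (-1.35 ± 0.41, adjusted p = 0.00674), and 8 of its 12 spots were saturated in the malpighian tubule. SW-54 and SW-106 followed each other over the 18 specimens (r = 0.99). SW-72 gave 820 in the female and 2877 in the male body wall, 156 to 246 in the silk glands and 3489 to 12658 in the other 12 specimens (-0.95 ± 0.35, adjusted p = 0.0234). Without the female body wall the differences of SW-106, SW-54 and SW-72 were -0.94, -0.29 and -0.04, and those of SW-54 and SW-72 no longer passed (adjusted p of 0.487 and 0.87), nor did that of SW-72 without the ovary (-0.77, 0.062). SW-72 was lower in the body wall than in 7 tissues and higher than in both parts of the silk gland.

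No probe was higher in the body wall than in each of the 9 other tissues, and none was lower than in each. Likewise, no probe reached 1000 in both body wall specimens and in no other specimen. The count of probes higher than in each tissue was 0 by limma under the deposited scaling although 34 passed against the mean, and 38 of the 55 had an unadjusted p under 0.05 in that contrast. With a floor of 1000, SW-5 passed against each tissue. Without the filter SW-3, SW-88 and SW-101 did, at signals of 194 to 1016 on the body wall arrays, and with scaling on the shared probes SW-31 and SW-52 did. SW-3, SW-5, SW-88 and SW-101 lay below the blank on all body wall arrays. SW-31 had passed the filter of the deposited signals only because of the body wall and had to be high there.

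Against single tissues the counts differed widely. The body wall was higher for 42 and lower for 2 of the 55 probes against the hemocyte, and 38 and 4 against the fat body. For the anterior silk gland these counts were 36 and 6, for the posterior silk gland 38 and 5, for the midgut 30 and 3, for the ovary 28 and 2 and for the testis 32 and 3. The head and the malpighian tubule stood apart, since more probes were lower than higher in the body wall. These comparisons share the same 2 body wall specimens. They also rest on the factor by which the authors multiplied each array. It was 2.195 to 3.166 on the head arrays and 0.67 to 0.82 on the body wall arrays. The counts against the head under other scalings are not given here.

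Against the head, 30 of 55 probes (54.5%) were called, 8 higher and 22 lower in the body wall. SW-32 and SW-81 led the higher ones, with 3.78 ± 0.30 and 3.68 ± 0.37 on the log2 scale. SW-1 and SW-27 led the lower ones, with -3.26 ± 0.45 and -3.17 ± 0.59. SW-6, SW-52, SW-63, SW-68 and SW-92 did not pass there, with log2 differences of -0.58 to 0.40. Over the 10 tissue means of log2 signal, the probes most like SW-6 were SW-102 (r = 0.92), SW-62 (0.90), SW-7 (0.90), SW-3 (0.89) and SW-74 (0.89). These values are descriptions over tissues that lie in different prefix groups. SW-102 was at 1600 in the female head and at 585 and 1080 in the body wall, while SW-3 and SW-62 did not reach the filter. Over all 106 probes the tissue means of the body wall correlated best with those of the head (r = 0.79), followed by the midgut (0.74) and the ovary (0.71). Over the 55 tested probes the order was head (0.70), fat body (0.65), ovary (0.60) and midgut (0.57). The malpighian tubule was at 0.68 over all 106 probes and had the lowest value, 0.23, over the 55.

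Against the malpighian tubule, 21 of 55 probes (38.2%) were called, 6 higher and 15 lower in the body wall. The 6 higher ones were SW-63 (2.80 ± 0.33), SW-6 (2.37 ± 0.32), SW-68 (1.82 ± 0.60), SW-92 (1.31 ± 0.35), SW-52 (1.26 ± 0.32) and SW-81 (0.95 ± 0.37). All but SW-81 lay above the blank on all 4 body wall arrays, and SW-81 only just passed (limma, adjusted p = 0.04995). After SW-106 and SW-54, the lower ones were led by SW-8, with 1307 and 1941 in the body wall, compared with 66521 in the female malpighian tubule. Its log2 difference was -5.26 ± 0.41 (limma, adjusted p = 3.23e-09), and 4 of its 12 spots were saturated in the tubule.

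**Figure D3:**
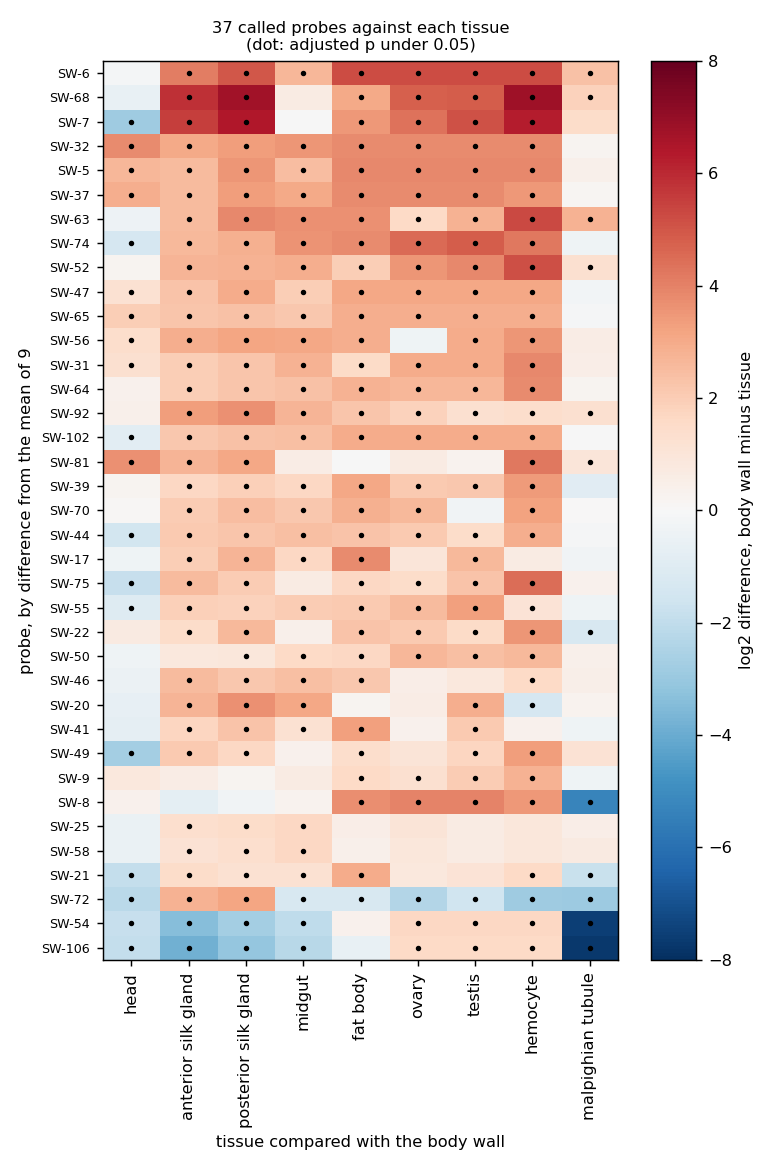
Log2 difference between the body wall and each of the 9 other tissues (columns) for the 37 probes called against their mean (rows, ordered by that difference), with red for higher in the body wall and a dot for an adjusted p under 0.05. The columns of the head and the malpighian tubule hold most of the cells without a dot or in blue, and no row is red with a dot in all 9.

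The second comparison concerned the sexes. In the body wall all 55 tested probes were brighter in the male specimen, and the median of their log2 differences was 1.01. The same median lay between -0.25 (head) and 0.29 (posterior silk gland) in the 7 other tissues with both sexes. Since the body wall has 1 specimen per sex, its own ratio has no replicate, and the test set its sex difference against those of the 7 other tissues. By this test 22 of 55 probes (40.0%) differed (limma, adjusted p under 0.05), all towards the male. With the arrays divided by their medians, or scaled on the shared probes, the count was 0. Of the 12 shared probes, all but SW-9 and SW-59 were themselves among the 22. Scaling on them thus takes out male excess by construction, and division by the median takes out a shift common to the array. These counts of 0 are therefore no separate check of the male excess. The sexes also differed in how much of the array was lit: all 3 spots of a probe were above the local background for 32 and 29 probes on the female slides and for 64 and 63 on the male slides, while the blank was at a similar level in both.

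SW-27 showed the largest difference by this test. It gave 1267 and 1199 on the female slides and 5639 and 4980 on the male slides, a male to female ratio of 4.31. The body wall difference exceeded that of the other tissues by 2.43 ± 0.59 on the log2 scale (limma, adjusted p = 0.00752). SW-45 (2.29 ± 0.57), SW-7 (2.26 ± 0.59), SW-68 (2.26 ± 0.57), SW-54 (2.05 ± 0.59), SW-18 (2.04 ± 0.59), SW-61 (1.99 ± 0.37) and SW-57 (1.91 ± 0.38) followed. SW-61 gave 1273 and 1065 in the female and 5183 and 4227 in the male, and SW-57 gave 1535 and 1614 in the female and 5350 and 4940 in the male. For SW-68 and SW-7 the ratios were 5.66 and 5.54. The slides repeated these ratios, at 5.26 and 6.17 for SW-68 and 6.20 and 5.04 for SW-7.

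The largest ratio of all was that of SW-98, at 6.42, and SW-87 had 5.19. Both were near the floor in the female (120 and 128) and under 1000 in the male (769 and 664), and they were not tested. SW-6 had a ratio of 1.00, SW-52 of 1.27 and SW-9 of 1.28. Relative to the median shift of the body wall, SW-68 was higher in the male by 1.50, SW-7 by 1.47, SW-54 by 1.12 and SW-27 by 1.10 on the log2 scale. After division by the array medians the difference of SW-27 from the other tissues was 1.81 with an adjusted p of 0.129, and that of SW-7 was 1.02 (0.842).

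**Figure D4:**
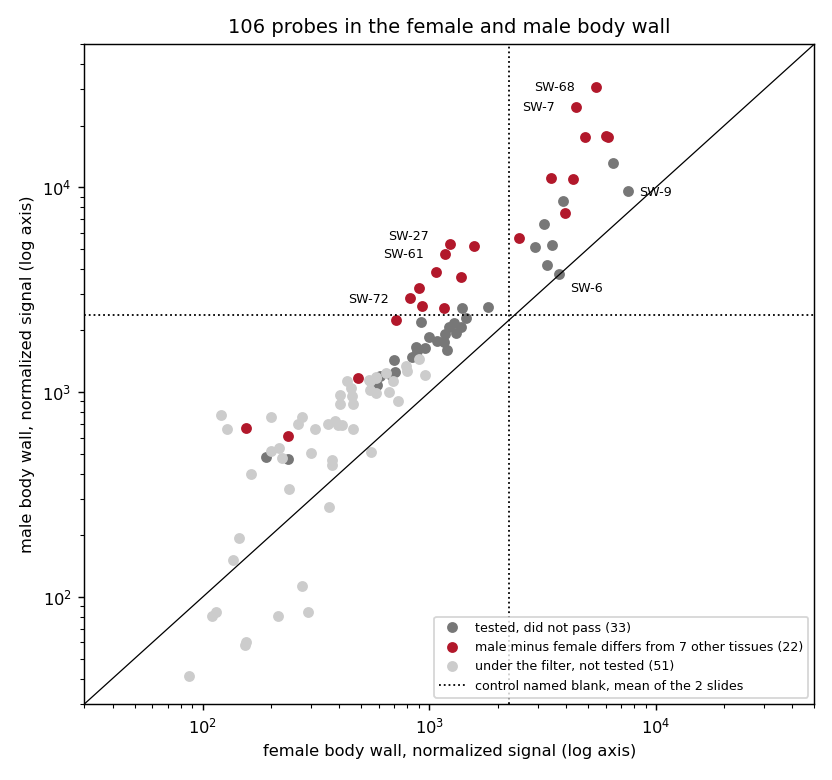
Normalized signal of the 106 probes in the female (x) and male (y) body wall on log axes, each the mean of slides a and b, with the line of equal signal and dotted lines at the blank control. Red points are the 22 probes whose sex difference differed from that of the 7 other tissues. SW-6 lies on the line of equal signal, at 3742 and 3752, and SW-68 far above it, at 5425 and 30712.

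The third comparison stayed within the prefix group of the body wall arrays, in which the blank was raised on all arrays. It set the 2 body wall specimens against silk gland (day 7 larva, prepupa at 0 h) and midgut (day 7 larva, spinning larva at 0 h), with each array brought to a common median of 500. On every array the median that was divided out lay below the blank of that array. It was 628.5 to 1446 on the body wall arrays and 1254 to 2721 on the others of the group. These silk gland and midgut specimens are older than the body wall, and their sex is labelled as a mixture. Tissue, stage and sex therefore cannot be told apart here, and the 2 body wall specimens are those of the first comparison. Of the 41 probes tested, 5 (12.2%) were higher and 6 (14.6%) lower in the body wall by limma. All 5 higher ones, SW-63, SW-92, SW-6, SW-74 and SW-52, had been higher against the mean of the larval tissues. In the larval head these 5 gave 2854 to 23357. SW-6, SW-52 and SW-63 passed the filter only because both body wall specimens were at 1000 or more, and SW-92 because at least 1 of them was, so that these 4 had to be high there. Their p-values are therefore given from the fit to all 106 probes without the filter, in which SW-63, SW-52 and SW-6 passed and SW-92 did not.

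SW-63 was at 2191 in the female and 2121 in the male body wall, compared with 490.3 and 301.0 in the silk glands and 385 and 576 in the midguts. Its difference was 2.35 ± 0.29 on the log2 scale, or 5.09-fold (limma without the filter, adjusted p = 0.0205). SW-6 was at 2809 and 1624, compared with 544 and 485 in the silk glands and 640.3 and 843 in the midguts (1.79 ± 0.29, adjusted p = 0.0322 without the filter). SW-92 was at 2575 and 2313, compared with 259 to 1185 (2.25 ± 0.51, adjusted p = 0.0652 without the filter). SW-74 differed by 1.52 ± 0.22 (adjusted p = 0.00929) and SW-52 by 1.23 ± 0.18 (0.0287 without the filter). The next largest, SW-68 (1.47 ± 0.54), SW-46 (1.04 ± 0.53) and SW-58 (0.95 ± 0.33), did not pass, at adjusted p of 0.0962, 0.204 and 0.0896. SW-68 was at 4024 and 13404 in the body wall, between silk glands at 894 and 623 and midguts at 8908 and 9939.

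The lower probes were led by SW-106 and SW-54, which were also lower in the first comparison. SW-106 was at 140.0 in the female and 213 in the male body wall, compared with 1608 and 2510 in the silk glands and 3227 and 7348 in the midguts (-4.19 ± 0.47 on the log2 scale, limma, adjusted p = 0.00514). SW-54 was at 115 and 284, compared with 1991 to 5625 (-3.95 ± 0.53, adjusted p = 0.00788). SW-33 was at 717 and 690.0 in the body wall and at 1856 to 3989 in the others (-1.95 ± 0.22, adjusted p = 0.00514). SW-8 (-1.82 ± 0.37), SW-11 (-1.52 ± 0.38) and SW-57 (-1.40 ± 0.35) also passed, but not without the filter (adjusted p of 0.0535 to 0.0721). SW-11 was high in the silk glands alone, at 3907 and 1833, and lower in the midguts (15.0 and 33.8) than in the body wall (173 and 207). SW-53 (-1.88 ± 0.63), SW-76 (-1.64 ± 0.53) and SW-30 (-1.45 ± 0.67) did not pass. SW-8 was among the 34 probes higher against the mean of the larval tissues, at 1.05 ± 0.31, and did not pass there without the male body wall, the ovary or the testis (adjusted p of 0.0605 to 0.081). On the signals as normalized by the authors, 0 of 86 probes were higher and 26 lower. Without the male body wall 0 probes were higher, without the day 7 silk gland 1, and without the female body wall 2, while SW-6, SW-52 and SW-63 left the filter once either body wall specimen was dropped. SW-106, SW-54 and SW-33 still passed when any 1 of the 6 specimens was left out.

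**Figure D5:**
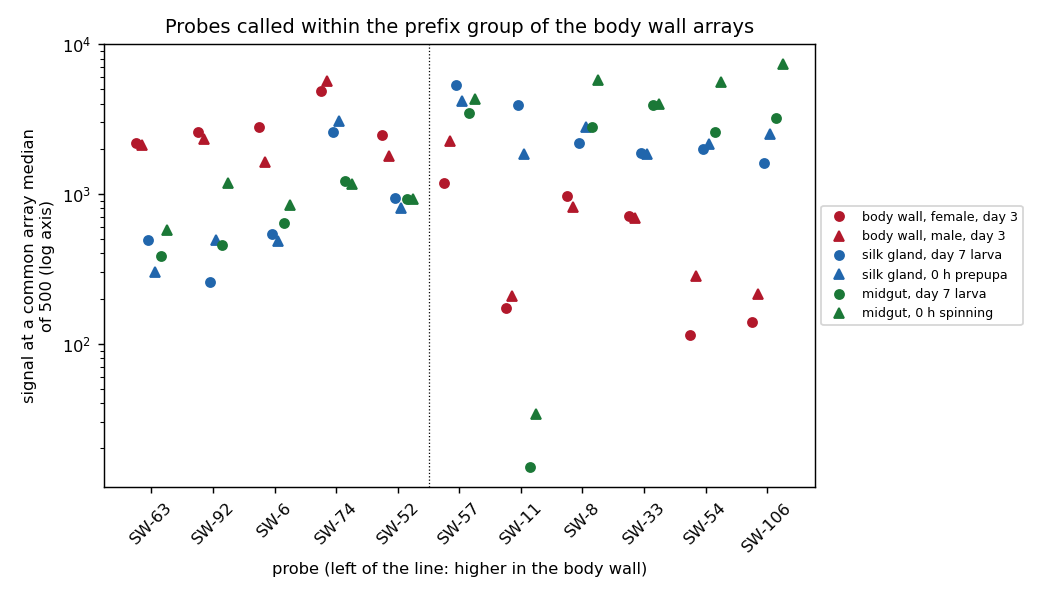
Signal at a common array median of 500 (log axis) of the 11 probes called within the prefix group of the body wall arrays, for the female and male body wall (red) and the silk gland (blue) and midgut (green) specimens of later stages. For the 5 probes to the left of the dotted line both body wall specimens lie above the 4 others, and for SW-106 at the right end they are at 140.0 and 213 compared with 1608 or more.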

How the data were processed

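Small RNA isolated from total RNA was labelled with Cy3 and hybridized, 1 specimen per array, to slides with 106 miRNA probes of 3 spots each. From spot intensities read in LuxScan the authors took off the local background, gave net intensities of 0 or less the value 10, replaced outlier spots, multiplied each larval array by 1 factor based on U6 and 5S rRNA and averaged the spots. These deposited intensities, on a linear scale, were used. The net 5S rRNA signals were near saturation on all day 3 arrays (61265 to 65122), those of the body wall included (64641 to 64754). The deposited percent of pixels above background (over 50% on all 3 spots) gave the lit probes. The labelled day 3 was used where texts give day 5.

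Signals under 100 were set to 100, taken to log2 and averaged over slides. Tissue means of the 18 larval specimens were fitted with limma 3.58.1 in R 4.3.3 (lmFit, eBayes with a variance trend) and adjusted by Benjamini-Hochberg over the probes tested. Python 3.11.15 was used for counts. The single ovary and testis specimens were assumed to vary like the other tissues. The p-values measure the spread between specimens, which differ in sex. The fit was tested on simulated data. Alternatives were other scalings, floors, filters, single slides and leaving out each specimen. Probes were named by rank: the 10 brightest, up to 12 higher and 6 lower, 8 and 5 by sex difference and ratio, 8 per direction within the prefix group, the 5 most like SW-6, and SW-7. Members and rules were chosen with earlier results of these data known. The number of arrays limits the precision. Between the 2 body wall slides of a specimen, the median absolute log2 difference was 0.23 (female) and 0.49 (male), slide a being higher for 81 and 87 of 106 probes.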

Additional observations from a re-analysis of the deposited data

Results flagged for a closer look

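The sex difference of the body wall differed from that of the 7 other tissues for 22 of 55 probes (limma, adjusted p under 0.05). Among the named probes, the excess towards the male on the log2 scale was 2.43 for SW-27, 2.29 for SW-45, 2.26 for SW-7, 2.26 for SW-68, 2.05 for SW-54, 2.04 for SW-18, 1.99 for SW-61 and 1.91 for SW-57. None of the 22 passed once the arrays were divided by their medians, or once they were scaled on the shared probes. All of the 12 shared probes but SW-9 and SW-59 were among the 22, so that scaling takes out male excess by construction.

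The control named blank was used only for its subtraction as an alternative and to mark probes above or below it. It gave 2591 (slide a) and 1889 (slide b) in the female body wall and 2712 and 2043 in the male. On the 28 day 3 arrays of 7 other prefix groups it reached 254 at most.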

How the results depend on the processing

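The 34 higher probes became 3 after common median scaling, 6 with the hemocyte also left out, 6 after blank subtraction, 17 with a floor of 1000 and 74 without the filter, and the 3 lower ones became 39, 33 and 21 under the first 3 of these and 7 with scaling on the shared probes. Scaling on the shared probes and leaving out the hemocyte were chosen after seeing the data. The count higher than in each tissue was 1 with a floor of 1000, 3 without the filter and 2 with scaling on the shared probes, and the count against the malpighian tubule was 33 without the filter. For the sex test the count was 0 under both scalings, 11 with a floor of 10, 44 with a floor of 1000 and 13 on slide b. Within the prefix group, the authors' signals, scaled in unlike ways for day 3 and later stages, gave 0 higher and 26 lower. A floor of 1000 gave 2 lower and no filter 3 lower. Probes at 1000 or more numbered 14 in the female after blank subtraction and 17 at a threshold of 2000, and in the male 28 after common median scaling, 22 after blank subtraction and 34 at 2000. Leaving out 1 specimen gave 25 to 44 higher and 1 to 9 lower probes (25 and 9 without the male body wall, 44 and 1 without the female), 0 to 0 against each tissue, 15 to 24 against the malpighian tubule, 19 to 23 in the sex test, and 0 to 5 higher and 3 to 9 lower within the prefix group. With sex as a replicate block, which pairs specimens by sex only, 32 probes were higher and 3 lower. The causes were not tested.

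Named probes turned direction in the contrast with the mean of the others as follows, on the log2 scale. After common median scaling: SW-45 -2.02, SW-18 -1.84, SW-38 -1.70, SW-58 -1.42, SW-25 -1.38, SW-11 -1.32, SW-33 -1.15, SW-9 -1.15, SW-46 -0.86, SW-55 -0.73, SW-8 -0.63 and SW-92 -0.20. With the hemocyte also left out: SW-45 -1.82, SW-18 -1.57, SW-38 -1.48, SW-33 -1.38, SW-11 -1.36, SW-58 -1.03, SW-25 -0.98, SW-9 -0.96, SW-8 -0.71, SW-46 -0.48 and SW-55 -0.27. After blank subtraction: SW-33 -3.10, SW-8 -2.87, SW-18 -1.67, SW-11 -1.37, SW-102 -0.54, SW-45 -0.33 and SW-38 -0.32. With a floor of 1000: SW-33 -0.74, SW-18 -0.51, SW-8 -0.35 and SW-11 -0.28. On the shared probes SW-11 was at -0.19 and SW-45 at -0.15, on slide a SW-61 at 0.0223 and on slide b SW-11 at -0.23. Without 1 specimen the ranges were -0.53 to 0.60 for SW-11, -0.56 to 1.28 for SW-18, -1.30 to 0.80 for SW-27, -0.32 to 1.36 for SW-38, -0.73 to 1.12 for SW-45, -1.14 to 0.35 for SW-53, -1.24 to 0.46 for SW-57, -1.11 to 0.90 for SW-61 and -0.83 to 0.31 for SW-76. SW-6 stayed at 3.70 to 3.90 and SW-63 at 2.48 to 3.23. Depth does not apply to arrays, and probes below the blank, or saturated, limit the sizes given.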
